A study of Mus musculus with 4 samples.

Results

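The aminoacyl-tRNA synthetases of mouse liver were examined as 2 groups, 20 genes for cytosolic enzymes and 16 for mitochondrial enzymes. A gene was included when a gene probe of the array carried its symbol, and all 36 symbols were found among the 30439 genes or transcripts of the design, on 46 of 39392 usable probes. The cytosolic set holds the enzymes without a 2 at the end of their symbol, among them Gars and Kars, whose products also serve mitochondria, and the mitochondrial set holds the enzymes whose symbol ends in 2.

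Aminoacyl-tRNA synthetases attach each amino acid to its tRNA and so supply the ribosome. Translation of nuclear messages in the cytosol and of the few messages of the mitochondrial genome uses largely separate enzymes, and all of them are encoded in the nucleus. Several cytosolic synthetase genes are known targets of ATF4, the transcription factor that accumulates when eIF2 is phosphorylated under amino acid shortage or stress of the endoplasmic reticulum or mitochondria. Drp1, encoded by Dnm1l, is a GTPase that divides mitochondria.

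RNA came from livers of male C57BL/6J mice that had all received a high-fat diet (HFD), for 24 weeks per the labels. Drp1LiKO mice carried the Alb-Cre transgene over floxed Drp1 alleles, so recombination is driven in hepatocytes by the albumin promoter, and Cont mice were littermates with the floxed alleles and no transgene. Each genotype was hybridized to 1 array in each of 2 feeding states, which gives 4 one-color Agilent arrays, all on 1 slide, and the labels do not say whether an array holds RNA of a single mouse or a pool. The refed pair is labelled as refed, after a 17 h fast and 4 h of refeeding per the series description. The labels of the other pair name no feeding state and tie its raw data to an earlier submission. These arrays are called fasted here from the description of the study, and every value called fasted carries that reservation.

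Levels are given as the log2 of the background-subtracted signal relative to the 75th percentile of the same array, and a difference of 1 on this scale is 2-fold. With a single array per group, a difference inside a feeding state has no replicate check and no p-value, and its standard error (SE) is the scanner's measurement error alone, 0.20 in the median over the members. The Drp1LiKO arrays were brighter, with 75th percentiles of 722 and 526 signal units against 461 and 357 on the Cont arrays of the fasted and refed pairs, and 55.4% to 58.2% of their gene spots were well above background against 48.7% to 51.4%. Dnm1l itself gave a log2 difference (Drp1LiKO minus Cont) of -0.21 (SE 0.20) and -0.12 (SE 0.20) in the fasted and refed pair, each within 2 SEs of 0, and the place of its probe relative to the deleted sequence is not known here. All 8 hepatocyte markers were well above background on every array. Their summed level, in multiples of the 75th percentile, was 2713 and 3227 on the Cont and 1869 and 2252 on the Drp1LiKO arrays, with 2 of 8 markers higher in Drp1LiKO in each pair. The summed level of 8 macrophage markers was 84.2 and 96.7 on the Cont and 99.2 and 167 on the Drp1LiKO arrays. That of 5 cholangiocyte markers, with Epcam not well above background on any array, was 0.494 and 0.564 against 1.08 and 1.02. The log2 ratio of the summed level (Drp1LiKO over Cont) in the fasted and refed pair was 1.20 and 0.04 for 6 stellate cell and fibroblast markers, -0.72 and 0.61 for 7 neutrophil markers (Cxcr2 not well above background), and -0.25 and -0.56 for 6 endothelial markers. The part of cell composition in the differences below was not tested, and in whole liver fewer cells of a type and less RNA per cell cannot be told apart.

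Of the 36 synthetases, 33 were well above background on all 4 arrays. Yars and Mars2 were so on the Drp1LiKO arrays alone, and Nars2 was not on any array, so no difference is read from Nars2.

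The medians of the cytosolic and the mitochondrial enzymes lay on opposite sides of 0. In the fasted pair, 15 of 20 cytosolic genes were higher in Drp1LiKO, with a median log2 difference of 0.27, while 10 of the 15 usable mitochondrial genes were lower, with a median of -0.14. In the refed pair, 14 of 20 cytosolic genes were higher (median 0.21) and 11 of 15 mitochondrial genes were lower (median -0.25). Over all genes the median was -0.08 in the fasted and -0.04 in the refed pair. The cytosolic median lay above it in each. The mitochondrial median lay below it in each, but close to it in the fasted pair. Restricted to the 33 members measured on all 4 arrays, the medians were 0.32 and 0.22 for 19 cytosolic genes, and -0.19 and -0.31 for 14 mitochondrial genes. In the same restriction over all genes, the medians were -0.12 and -0.08. Of these 14447 genes, 38.7% lay above 0 and 61.3% below it in the fasted pair, and 42.2% and 57.8% in the refed pair.

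**Figure D1:**
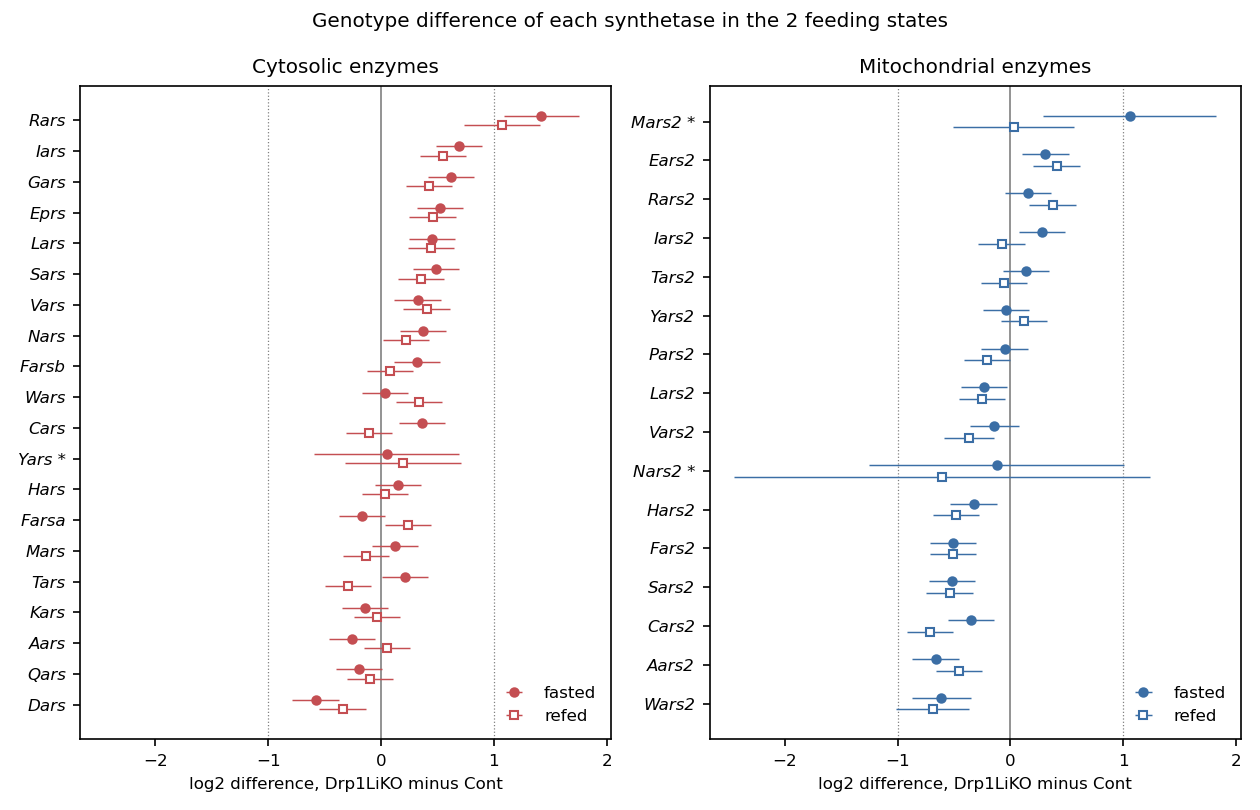
Log2 difference (Drp1LiKO minus Cont) of each synthetase in the fasted (filled circles) and the refed pair (open squares), with bars of 1 measurement SE, dotted lines at 2-fold, and an asterisk on genes not well above background on all 4 arrays. Most cytosolic enzymes lie right of 0, led by Rars at 1.42 and 1.07, and most mitochondrial enzymes lie left of it, among them Wars2 at -0.61 and -0.69.

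The sizes were small against the 2-fold rule. Rars, the arginyl-tRNA synthetase, passed it in both pairs, and the fitted value of Mars2 passed it in the fasted pair, so that 2 of 35 usable members were called higher after fasting and 1 of 35 after refeeding, where 8.06% and 8.05% of all genes were. No member was 2-fold lower, against 5.19% and 6.33% of all genes. The members' shares were below or near these backgrounds. At 1.5-fold, Rars, Mars2, Iars and Gars were higher and Wars2 and Aars2 lower after fasting, against 14.4% and 13.8% of all genes. After refeeding, Rars alone was 1.5-fold higher, and Cars2 and Wars2 were lower, against 14.8% and 15.3%.

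More members stood apart from 0 when each was judged against its own measurement error. Among the cytosolic genes measured on all arrays, 6 of 19 were more than 2 SEs higher in Drp1LiKO in the fasted pair and 5 of 19 in the refed pair, against 11.4% and 13.1% of 14447 genes. A single cytosolic gene, Dars in the fasted pair, was more than 2 SEs lower. Of the mitochondrial genes, 4 of 14 and 6 of 14 were more than 2 SEs lower, against 22.3% and 22.1%, and 0 of 14 were more than 2 SEs higher in either pair.

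Direction was mostly shared by the pairs, which have no array in common, for the members as for all genes measured throughout. Of the 19 cytosolic genes measured throughout, 11 were higher in both pairs and 3 lower in both (Dars, Qars and Kars). Of the 14 mitochondrial genes, 2 were higher in both (Ears2 and Rars2) and 9 lower in both. Over all genes measured throughout, 27.8% were higher in both and 46.9% lower in both.

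**Figure D2:**
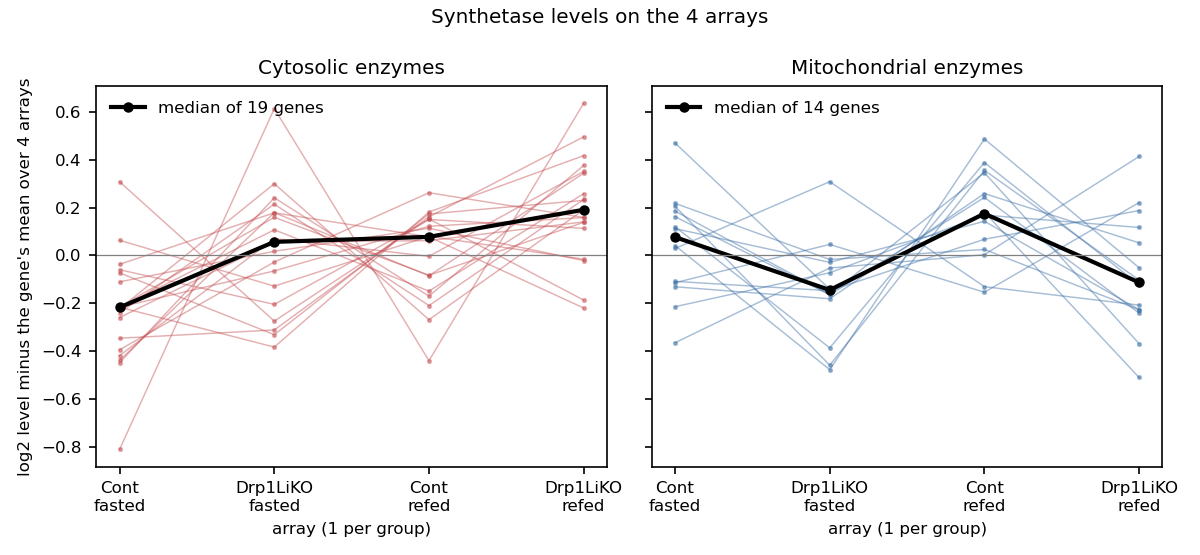
Log2 level of each synthetase minus its own mean over the 4 arrays (thin lines, 33 genes well above background on all of them) with the median per array in black, for 19 cytosolic and 14 mitochondrial genes. The cytosolic median goes from -0.22 on the fasted Cont array to 0.06 on the fasted Drp1LiKO array, and from 0.08 to 0.19 in the refed pair, while the mitochondrial median goes from 0.08 to -0.14 and from 0.17 to -0.11.

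The enzymes of the multisynthetase complex, an assembly that holds several synthetases together in the cytosol, include the gene with the largest difference. Rars had log2 levels of -3.31 on the fasted Cont array, -1.89 on the fasted Drp1LiKO array, -2.94 on the refed Cont array and -1.87 on the refed Drp1LiKO array. Both Drp1LiKO arrays were higher than both Cont arrays, by 1.42 (SE 0.33), or 2.68-fold, in the fasted and 1.07 (SE 0.33), or 2.10-fold, in the refed pair. Its probe (mm9, chromosome 11, 35633429 to 35634605) spans 1177 bases of the genome, more than the length of the probe. Its unscaled signal was dim, at 46.5 and 46.6 units on the Cont arrays against 195 and 144 on the Drp1LiKO arrays. With normexp background correction, which adds an offset of 50 units, the differences were 0.60 and 0.37, and neither passed 2-fold.

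Iars, the isoleucyl-tRNA synthetase of the complex, had log2 levels of 1.07 and 1.76 on the fasted Cont and Drp1LiKO arrays and of 1.35 and 1.90 on the refed ones. Its differences were 0.69 (SE 0.20) and 0.55 (SE 0.20), and again both Drp1LiKO arrays were above both Cont arrays. Eprs, the fused enzyme for glutamate and proline, followed with 0.52 (SE 0.21) and 0.46 (SE 0.21). Lars, the leucyl enzyme, which is also known as a leucine sensor upstream of mTORC1, had 0.45 (SE 0.20) and 0.44 (SE 0.20). These 4 enzymes each exceeded 2 SEs in both pairs.

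The other members of the complex went the other way or differed little. Dars, the aspartyl enzyme, had log2 levels of -0.23 and -0.81 on the fasted Cont and Drp1LiKO arrays and of -0.39 and -0.72 on the refed ones. It was the lowest cytosolic gene, at -0.58 (SE 0.21) and -0.34 (SE 0.21). Qars, for glutamine, was at -0.19 and -0.10, and Kars, for lysine, at -0.14 and -0.04, both within 1 SE of 0. Mars, for methionine, was at 0.13 and -0.13. The 8 complex enzymes thus ranged from -0.58 to 1.42 after fasting, with medians of 0.29 and 0.20 in the fasted and refed pair. The 12 free cytosolic enzymes had medians of 0.27 and 0.21, so the medians of complex and free enzymes were alike.

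Among the free enzymes, Gars, the glycyl enzyme of cytosol and mitochondria, had log2 levels of 3.95 and 4.57 on the fasted Cont and Drp1LiKO arrays and 4.30 and 4.73 on the refed ones. Its differences were 0.62 (SE 0.20) and 0.43 (SE 0.20), each beyond 2 SEs. Sars, for serine, was at 0.49 (SE 0.20) and 0.35 (SE 0.20), beyond 2 SEs after fasting alone. Vars, for valine, was at 0.32 and 0.41, and Nars, for asparagine, at 0.37 and 0.22, all below 2 SEs.

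The remaining free enzymes were closer to 0 or lay on different sides of it in the pairs. Farsb, the beta subunit of the phenylalanyl enzyme, was at 0.32 and 0.08, while Farsa, its alpha subunit, was at -0.17 and 0.24, each subunit with an SE of 0.20. Cars, for cysteine, was at 0.37 and -0.10, and Hars, for histidine, at 0.15 and 0.04. Aars, the alanyl enzyme, was at -0.26 (SE 0.20) and 0.06 (SE 0.20). Wars, for tryptophan, a gene known to be induced by interferon gamma, was at 0.03 (SE 0.20) and 0.33 (SE 0.20). Tars, for threonine, was higher after fasting at 0.21 (SE 0.20) and lower after refeeding at -0.30 (SE 0.20). Yars, for tyrosine, was not well above background on the Cont arrays, and its signal on the Drp1LiKO arrays lay below the lowest signal well above background on the Cont array of the pair, so it allows no fold. The direction of Kars, Wars and Yars after fasting and of Kars, Qars and Yars after refeeding depended on the scaling or background method.

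The response element that ATF4 and C/EBP proteins share was looked for in the promoters, since ATF4 is the known regulator of several of these genes. Windows from 250 bases before to 50 bases after the transcription start, from RefSeq on GRCm38.p6, were matched for 27 of the 36 members, 13 cytosolic and 14 mitochondrial. The motif TGATGNAA, on either strand, was found in 5 of the 13 cytosolic windows and in 0 of the 14 mitochondrial genes, against 4.51% of 27025 genes and 3.97% of 32851 windows of the same length. The 5 promoters are shown from 140 bases before the start through the first 30 transcribed bases, in the direction of transcription, with the element in capitals, because they are the members whose windows hold it.

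Aars promoter, chr8:111033702-111033871, plus strand: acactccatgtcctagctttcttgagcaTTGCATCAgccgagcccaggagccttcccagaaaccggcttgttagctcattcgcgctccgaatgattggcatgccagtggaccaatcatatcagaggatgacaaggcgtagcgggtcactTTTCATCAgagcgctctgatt
Gars promoter, chr6:55037861-55038030, plus strand: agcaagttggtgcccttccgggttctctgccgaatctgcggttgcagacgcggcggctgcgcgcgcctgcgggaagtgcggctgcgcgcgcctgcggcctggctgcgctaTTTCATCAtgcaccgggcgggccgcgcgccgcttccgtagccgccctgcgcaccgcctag
Iars promoter, chr13:49681990-49682159, plus strand: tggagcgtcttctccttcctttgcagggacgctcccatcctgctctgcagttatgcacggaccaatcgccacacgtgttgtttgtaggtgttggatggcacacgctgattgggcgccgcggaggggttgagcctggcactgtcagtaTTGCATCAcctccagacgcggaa
Tars promoter, chr15:11399629-11399798, minus strand: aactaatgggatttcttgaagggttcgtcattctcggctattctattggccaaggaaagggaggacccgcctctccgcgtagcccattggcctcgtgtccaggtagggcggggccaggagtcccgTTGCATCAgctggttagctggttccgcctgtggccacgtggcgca
Yars promoter, chr4:129189763-129189932, plus strand: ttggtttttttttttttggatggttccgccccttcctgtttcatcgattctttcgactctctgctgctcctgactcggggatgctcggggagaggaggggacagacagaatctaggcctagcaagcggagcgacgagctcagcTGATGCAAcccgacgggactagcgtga

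The element lay on the strand opposite to the one shown, where it appears as TTGCATCA or TTTCATCA, in Aars, Gars, Iars and Tars. In Yars it lay on the strand shown, as TGATGCAA. It began 112 bases before the start and again 9 bases after it in Aars, 30 bases before the start in Gars, 15 before it in Tars, 7 after it in Iars and 3 after it in Yars. The exact sequence TTGCATCA was shared by Aars, Iars and Tars. Of the 4 genes with the element that were measured on all arrays, 3 were higher in Drp1LiKO in the fasted pair (all but Aars, median 0.42) and 3 in the refed pair (all but Tars, median 0.24), and Yars allows no direction. The 8 cytosolic genes with a window and no match had medians of -0.01 and 0.02, and 4 of the 8 were higher in each pair, among them Eprs and Sars. Rars, Lars, Vars, Nars, Cars, Hars and Wars had no window in the table. A match is a description of the letters in the window and does not show that the site is bound in liver.

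Among the mitochondrial enzymes, those lower in Drp1LiKO outnumbered those higher, as was also so over all genes measured on all arrays. Wars2, for tryptophan, had log2 levels of -2.60 and -3.21 on the fasted Cont and Drp1LiKO arrays and of -2.88 and -3.57 on the refed ones. Both Drp1LiKO arrays were below both Cont arrays, with differences of -0.61 (SE 0.26) and -0.69 (SE 0.33). Its second probe, well above background on 2 arrays, gave 0.08 and -0.25.

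Sars2, for serine, had log2 levels of 0.04 and -0.48 on the fasted Cont and Drp1LiKO arrays and of 0.48 and -0.05 on the refed ones. The differences were -0.52 (SE 0.21) and -0.54 (SE 0.21), and the level moved by about as much between the feeding states, so the fasted Cont and the refed Drp1LiKO array were close. Aars2, the alanyl enzyme, had levels of 1.03 and 0.37 on the fasted and of 1.18 and 0.72 on the refed Cont and Drp1LiKO arrays. Its differences, -0.66 (SE 0.20) and -0.46 (SE 0.20), were each beyond 2 SEs.

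Fars2, the phenylalanyl enzyme of mitochondria, was the most even, at -0.51 (SE 0.20) in each pair. Cars2, for cysteine, which is also known to form cysteine persulfides, was at -0.35 (SE 0.21) and -0.71 (SE 0.21). Hars2, for histidine, was at -0.33 (SE 0.20) and -0.48 (SE 0.20). The last 2 genes passed 2 SEs after refeeding alone.

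Smaller negative differences were found for Lars2, for leucine (-0.23 and -0.25), Vars2, for valine (-0.14 and -0.37), and Pars2, for proline (-0.05 and -0.21). Ears2, for glutamate, was the highest mitochondrial gene measured on all arrays, at 0.31 (SE 0.21) and 0.41 (SE 0.21), and Rars2, for arginine, was at 0.16 (SE 0.20) and 0.37 (SE 0.20). Iars2, for isoleucine, was at 0.28 and -0.08, Tars2, for threonine, at 0.14 and -0.05, and Yars2, for tyrosine, at -0.04 and 0.12. The probe of Yars2 lies on chromosome 16, 4879 bases from the probe of Dnm1l in the mm9 build, and its differences were within 1 SE of 0. Mars2, for methionine, had log2 levels of -5.16 and -4.10 on the fasted Cont and Drp1LiKO arrays and of -4.07 and -4.04 on the refed ones. Its Drp1LiKO signals were below the lowest signal well above background on the matching Cont arrays, at -3.96 and -3.55, so the 2-fold call of Mars2 after fasting comes from a Cont signal that was not measured and allows no fold.

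The lower values of mitochondrial enzymes are relative to the array. Before scaling, the Aars2 signal was 940 units on the fasted Cont and 930 on the fasted Drp1LiKO array, and 808 and 867 in the refed pair, while that of Iars was 970 against 2448 and 911 against 1958. Scaling to the median in place of the 75th percentile gave mitochondrial medians of -0.20 and -0.20 and cytosolic medians of 0.21 and 0.26, and quantile normalization gave -0.15 and -0.23 against 0.38 and 0.27. The median over all genes moved from -0.08 to -0.13 and 0.01 with these methods in the fasted pair, and from -0.04 to 0.01 and 0.03 in the refed pair.

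Comparing enzymes for the same amino acid cancels a constant brightness factor of the arrays, but not effects that change with signal level. Partners can differ in level, as with Sars at 3.06 and Sars2 at 0.04 on the fasted Cont array. For 16 pairs with a signal on at least 1 array, covering 15 amino acids, the genotype difference of the cytosolic enzyme was above that of its mitochondrial partner in 15 pairs after fasting and in 14 after refeeding. The median gap was 0.47 after fasting and 0.62 after refeeding. Over the processing alternatives for these pairs, it lay between 0.44 and 0.53 and between 0.57 and 0.63. In 14 pairs with both enzymes measured on all arrays, the cytosolic enzyme was above its partner in 14 after fasting and in 13 after refeeding, and the medians were 0.52 and 0.64. Eprs and Fars2 each enter 2 pairs, and all enzyme pairs are read from the same arrays, with 1 array per group. The pairs are therefore not independent, and the counts over them do not stand in for replicates.

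**Figure D3:**
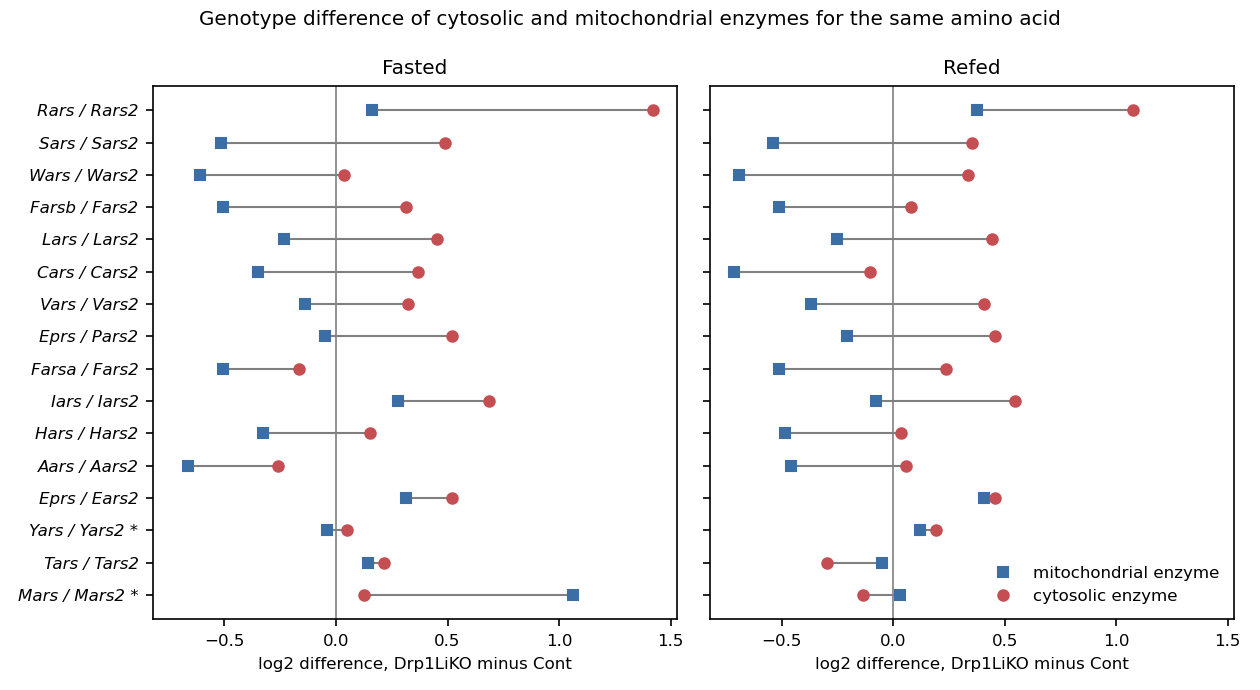
Log2 difference (Drp1LiKO minus Cont) of the cytosolic (red circle) and the mitochondrial enzyme (blue square) for the same amino acid in the fasted (left) and refed pair (right); asterisks mark pairs with an enzyme not well above background on all arrays. The red point lies right of the blue one in 15 of 16 pairs after fasting and in 14 of 16 after refeeding, with the widest gap for arginine after fasting (1.26) and for tryptophan after refeeding (1.02).

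The gap exceeded 2 of its SEs in 5 pairs after fasting and in 9 after refeeding, and in 0 pairs in the other direction. No share over other gene pairs was computed for these counts. Of 14447 single genes, 11.4% were more than 2 SEs higher and 22.3% lower after fasting, and 13.1% and 22.1% after refeeding. Rars stood above Rars2 by 1.26 (SE 0.39) in the fasted pair and 0.70 (SE 0.39) in the refed one. With normexp, the fasted genotype differences of these enzymes were 0.60 for Rars and 0.21 for Rars2. Sars and Sars2 were 1.01 (SE 0.29) and 0.89 (SE 0.29) apart, with Sars above 0 and Sars2 below 0 in both feeding states. Wars and Wars2 were 0.64 (SE 0.33) and 1.02 (SE 0.39) apart, and Lars and Lars2 0.69 (SE 0.29) in each. For glutamate the gap between Eprs and Ears2 was 0.21 and 0.05, within 1 SE, since both enzymes were higher. The exceptions were methionine, where Mars2 was barely detected, in both states, and threonine after refeeding, where Tars lay 0.25 below Tars2 (SE 0.29).

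Class I enzymes, which bind ATP in a Rossmann fold, had medians of 0.14 and 0.08 over 18 genes, and class II enzymes, built on an antiparallel sheet, had -0.10 and -0.04 over 16 usable genes. Eprs, which holds both folds, was left out of that division. Each class held members at both ends of the range.

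Fitting genotype and feeding as additive terms in limma, over 16744 genes and all 4 arrays, gave the one test the design allows, with 1 residual degree of freedom. No member reached a Benjamini-Hochberg adjusted p under 0.05 for genotype, and 0% of all genes did. The smallest adjusted p among the members was that of Rars, with an effect of 1.25 (SE 0.17) and a limma adjusted p of 0.102 (unadjusted p 0.0029). Wars2 followed with -0.65 (SE 0.14) and a limma adjusted p of 0.116. Iars had an effect of 0.62 (SE 0.14) and a limma adjusted p of 0.122. The adjusted p from limma was 0.133 for Sars2 and 0.135 for Aars2.

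At an unadjusted limma p under 0.05, 6 of 35 tested members were higher, all of them cytosolic (Rars, Iars, Gars, Eprs, Lars and Sars), against 11.6% of all genes. Another 6 were lower, 5 mitochondrial (Wars2, Aars2, Cars2, Sars2 and Fars2) and Dars, against 16.7%. When the model was restricted to 14447 genes well above background on all arrays, 1 member, Rars, was called higher at a limma adjusted p of 0.0355, where 3.2% of genes were called higher and 5.2% lower. Over the other alternatives the adjusted p of Rars from limma lay between 0.0577 and 0.26. The interaction, the refed minus the fasted genotype difference, was within 2 SEs for all 33 members measured on all arrays. Of all genes measured on all arrays, 11.7% were beyond it. The widest among genes measured on all arrays were Tars (-0.51, SE 0.29), Cars (-0.47, SE 0.29) and Farsa (0.40, SE 0.29).

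Refeeding went with higher levels of most cytosolic enzymes in Cont, and in Drp1LiKO the count depended more on the scaling. Over the processing alternatives, the number of cytosolic genes higher after refeeding lay between 14 and 17 in Cont and between 12 and 18 in Drp1LiKO. In Cont, 17 of 19 cytosolic genes measured on all arrays were higher on the refed than on the fasted array, with a median log2 difference of 0.25, and in Drp1LiKO 15 of 19, with a median of 0.14. With quantile normalization or the authors' values, 12 of 20 cytosolic genes were higher in Drp1LiKO, with a median of 0.03, and with median scaling 18 of 20, with a median of 0.23. The sign of 8 members' feeding difference in Drp1LiKO, and of 4 in Cont, depended on the scaling or background method. Of 14 mitochondrial genes, 10 were higher in Cont (median 0.16) and 8 in Drp1LiKO (median 0.18). Over all genes measured throughout, 61.5% and 59.1% were higher, with medians of 0.11 and 0.12. No synthetase with a usable signal differed 2-fold between the feeding states, where 4.47% of genes were higher and 5.83% lower in Cont, and 5.61% and 7.15% in Drp1LiKO. Beyond 2 SEs, 3 of the 19 cytosolic genes were higher after refeeding in Cont and 3 in Drp1LiKO, and of the 14 mitochondrial genes 1 and 2 were higher, against 15.7% and 25.6% of all genes. A single member, Iars2 in Drp1LiKO, was more than 2 SEs lower, at -0.51 (SE 0.20), against 10.7% in Cont and 15% in Drp1LiKO. At 1.5-fold, Cars was higher in Cont and Wars, Farsa and Yars in Drp1LiKO, against 10% and 17.5% higher and 11.7% and 14.9% lower. In both genotypes at once, 14 of 19 cytosolic and 7 of 14 mitochondrial genes were higher after refeeding and 1 and 3 lower, against 48.4% and 27.8% of all genes.

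**Figure D4:**
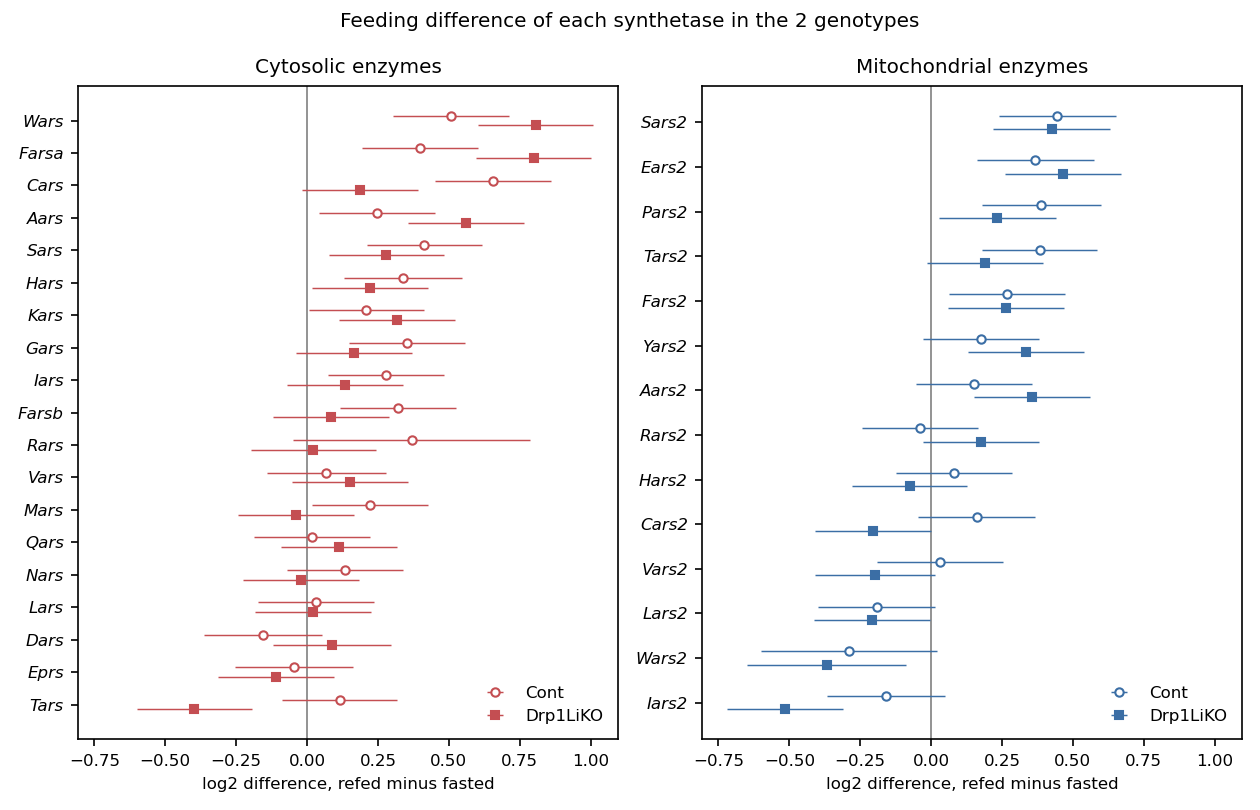
Log2 difference (refed minus fasted) of each synthetase well above background on all arrays in Cont (open circles) and Drp1LiKO (filled squares), with bars of 1 measurement SE. Most cytosolic points lie right of 0, with Cars highest in Cont at 0.65 and Wars highest in Drp1LiKO at 0.81, and the mitochondrial points lie on both sides.

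In Drp1LiKO the largest feeding differences were those of Yars, at 0.83 (SE 0.40), Wars and Farsa, and in Cont that of Cars. Wars had log2 levels of 2.52 and 2.56 on the fasted and of 3.03 and 3.36 on the refed Cont and Drp1LiKO arrays, so both refed arrays were above both fasted ones, by 0.51 (SE 0.20) in Cont and 0.81 (SE 0.20) in Drp1LiKO. Its second probe gave 0.59 and 0.56. Farsa was higher by 0.40 (SE 0.20) and 0.80 (SE 0.20), and Aars by 0.25 (SE 0.20) and 0.56 (SE 0.20).

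Cars was higher after refeeding by 0.65 (SE 0.20) in Cont against 0.19 (SE 0.20) in Drp1LiKO, and the difference between these values was within 2 SEs. Tars was 0.11 in Cont and -0.40 in Drp1LiKO. Among the mitochondrial genes, Sars2 was 0.44 and 0.43 higher and Ears2 0.37 and 0.47 higher. Wars2 was at -0.29 (SE 0.31) and -0.37 (SE 0.28), each within 2 SEs of 0, and at 0.02 and 0.04 with normexp. In limma no member passed the adjusted threshold for feeding state (0% of all genes did), and 5 of 35 members were higher at an unadjusted p under 0.05, against 15.8% of genes. The feeding and genotype differences share the same 4 arrays, so the Cont level after fasting enters both.

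Genes around the synthetases were described by lists. Eef1e1, one of 3 scaffold genes of the multisynthetase complex, was higher in Drp1LiKO by 0.80 and 0.98, while Aimp1 had 0.06 and 0.42 and Aimp2 -0.15 and 0.19. All 3 scaffold genes were higher on refeeding in both genotypes. Of 13 measured genes for other aminoacylation steps, 4 were higher in the fasted pair (median -0.16) and 6 in the refed pair (median -0.03). This list holds Gatb, a subunit of the amidotransferase that makes mitochondrial glutaminyl-tRNA without a glutaminyl synthetase, which was at -0.56 and -0.77, while its other subunits Gatc and Qrsl1 were at 0.10 and 0.19 and at -0.08 and 0.58. Genes of tRNA processing were divided, with 14 of 24 higher after fasting and 13 of 24 after refeeding.

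The translation machinery was described in the same way. Of 12 cytosolic ribosomal protein genes, 2 were higher in Drp1LiKO after fasting (median -0.16) and 8 after refeeding (median 0.13). Of 6 cytosolic elongation factor genes, 2 were higher in each pair, with medians of -0.30 and -0.02. On the mitochondrial side, 10 of 11 ribosomal protein genes were lower after fasting (median -0.14) and 9 of 11 after refeeding (median -0.11). Of 15 mitochondrial synthetases, 10 and 11 were lower. Over all genes measured on all arrays, 61.3% and 57.8% were lower. Their medians were -0.12 and -0.08, near those of the mitochondrial ribosomal genes. The 9 mitochondrial translation factors were divided, with 4 higher after fasting (median -0.10) and 5 after refeeding (median 0.02), from Tufm, an elongation factor, at -0.50 and -0.47 to Tsfm, its exchange factor, at 0.22 in each pair and Mtrf1, a release factor, at 0.38 and 0.16. None of these genes was 2-fold apart between the genotypes.

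**Figure D5:**
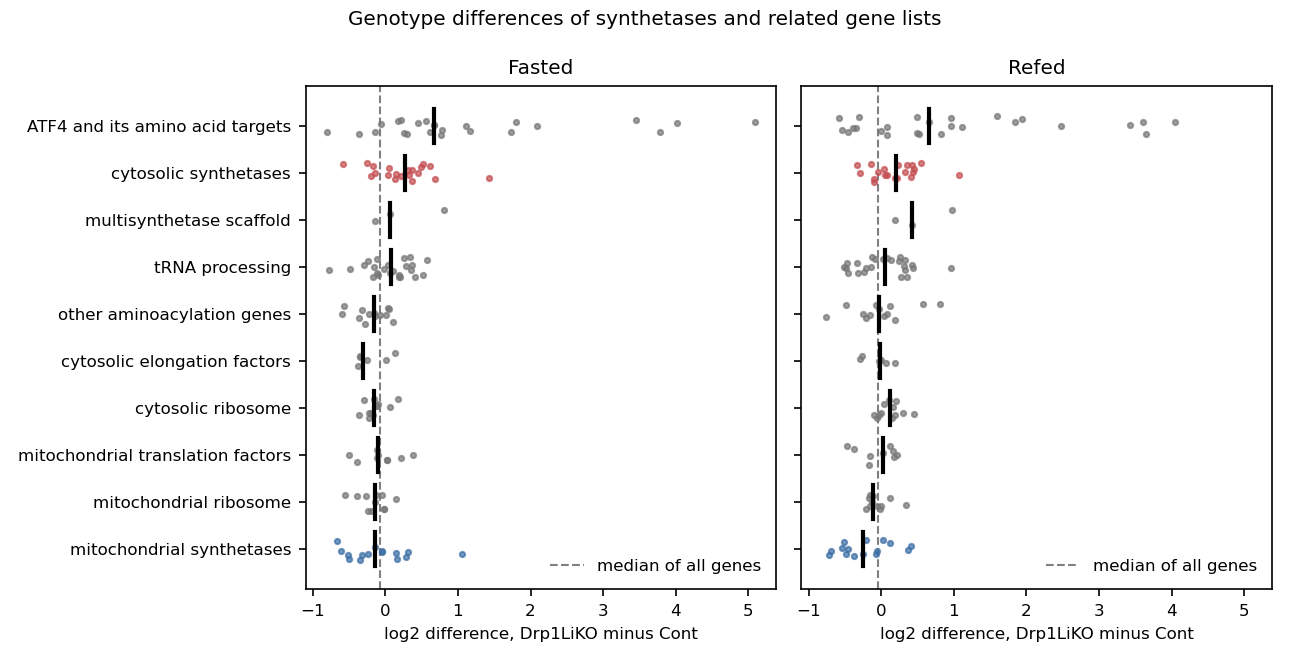
Log2 difference between Drp1LiKO and Cont for genes of 10 lists in the fasted (left) and refed pair (right), 1 point per gene with a signal well above background on at least 1 array of the pair (where the other array lacks one, the point has no measured size), black bars at list medians and a dashed line at the median of all genes. The ATF4 list holds Trib3 at 4.02 and 3.43, the cytosolic synthetases lie between -0.58 and 1.42, and the mitochondrial synthetases have medians of -0.14 and -0.25.

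ATF4 and genes known as its targets in amino acid metabolism and transport, a list without synthetases, had larger differences. Of the 20 genes well above background on both fasted arrays, 16 were higher and 5 of them at least 2-fold, with a median of 0.58. Of the 20 on both refed arrays, 16 were higher and 7 of them at least 2-fold, with a median of 0.59. Psat1, the phosphoserine aminotransferase, was not well above background on the fasted Cont array and was at least 20.3-fold higher there, measured against the lowest signal well above background, and its refed difference was 4.04 on the log2 scale. Asns, the asparagine synthetase, was at 3.78 and 3.65, and Trib3, a pseudokinase induced by ATF4, at 4.02 and 3.43. Ddit3, which encodes CHOP, was at 2.09 and 3.60. Atf4 itself was at 0.61 and 0.51, close to Iars and Gars. Not all members of the list were higher, and Shmt2, the mitochondrial serine hydroxymethyltransferase, was at -0.80 and -0.57. Of the windows of this list, 6 of 23 genes held the TGATGNAA element.

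Among the genes of eIF2 kinases and phosphatase subunits, Ppp1r15a, the stress-induced phosphatase subunit, was at 0.82 and 0.90, and Eif2ak3, which encodes PERK, at 0.66 and 0.55. Eif2ak2, the interferon-induced kinase PKR, was at 0.06 after fasting and at 1.44 after refeeding. Of 20 interferon-stimulated genes, 18 were higher after fasting (median 0.96) and 19 after refeeding (median 2.39), beside the values of 0.03 and 0.33 for Wars. Whether these lists and the synthetases move for the same reason was not tested.

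Most members were read by 1 probe, and those with several did not always concur. The probe of Vars2 that was not used gave 0.47 and 0.05 where the brighter one gave -0.14 and -0.37. The second probe of Cars2 gave -0.12 and 0.16, and that of Iars2 gave -0.15 and -0.51 against 0.28 and -0.08. For Farsa, the second probe was at 0.05 and 0.38, and for Tars2 at 0.08 and 0.04. The second probe of Wars gave 0.46 and 0.43, larger than the 0.03 and 0.33 of the brighter one. The genotype values of Vars2, Cars2, Iars2, Wars2, Tars2, Farsa and Wars therefore depend on the probe.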

How the data were processed

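Liver RNA was labelled in one color and hybridized to 4 Agilent arrays of a 4x44K design per the labels (the methods text names another design), 1 per group. The deposited intensity values are background-subtracted processed signals that the authors extracted with Agilent Feature Extraction (9.5.1.1 in the submitters' processing notes, 10.7.1.1 in the file headers). The authors also deposited normalized intensities, which equal a quantile normalization of these signals and served, on the log2 scale, as an alternative. Here, control and outlier spots were left out, repeated spots were averaged on the log2 scale, and each array was set relative to its 75th percentile. A gene was read from the probe well above background on most arrays and, among those, the brightest. A call needed 2-fold with the brighter signal well above background. The additive model used limma 3.58.1 in R 4.3.3, on genes with a signal well above background on 2 or more arrays, with Benjamini-Hochberg adjustment. Tested on simulated data of 16744 genes, limma recovered 176 of 200 genes made 8-fold and 1 of 200 made 2-fold different in the additive genotype effect, with 14 false calls. Noise in this simulation followed limma's own variance estimate, without interaction, so the recovery is not the power on the real arrays. Precision is limited by the number of arrays. All members are named; values on every array are given for members called at 2-fold or with the smallest adjusted p, and for a few others. The members and lists were chosen with earlier results of these data known. Alternatives were median scaling, quantile normalization, normexp with an offset of 50, other probe rules, other filters and other models.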

Additional observations from a re-analysis of the deposited data

Results flagged for a closer look

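Tars, the cytosolic threonyl-tRNA synthetase, lay on opposite sides of 0 in the 2 feeding states, by more than 1 measurement SE each. Its log2 difference (Drp1LiKO minus Cont) was 0.21 in the fasted and -0.30 in the refed pair. Its log2 levels were 3.11 and 3.32 on the fasted Cont and Drp1LiKO arrays and 3.22 and 2.93 on the refed ones, so the refed Drp1LiKO array was the lowest of the 4. The difference between the feeding states, -0.51 (SE 0.29), was not tested, since 1 array per group leaves no residual for it.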

How the results depend on the processing

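Of 275 alternative values of summaries and counts, 254 stayed within 1 measurement SE or 1.5 times the count, 19 moved further and 2 reversed. Of 1560 for single members, 1496 stayed within 1 SE or on their side of the threshold, 62 moved further, 1 reversed a called value (Mars2) and 1 newly passed the threshold (Rars). Members not called changed sign with the scaling or background method too, and with Mars2 these were 5 in the fasted and 5 in the refed genotype difference, 4 in the feeding difference of Cont and 8 in that of Drp1LiKO. The cytosolic median stayed between 0.21 and 0.38 (fasted) and 0.20 and 0.27 (refed), and the mitochondrial one between -0.20 and -0.05 and between -0.34 and -0.20. The fasted count of 2 called members became 1 with quantile normalization, with the authors' values or among genes well above background on all 4 arrays, 0 with normexp and 6 at 1.5-fold. The refed count of 1 became 0 with normexp and 3 at 1.5-fold. The feeding counts of 0 became 1 in Cont (at 1.5-fold, and Aars with the median over all probes) and 3 in Drp1LiKO at 1.5-fold. One interaction, that of Tars, passed 2 SEs with quantile normalization or the authors' values (1 against 0 members). The cytosolic minus mitochondrial median for feeding in Drp1LiKO, -0.03, reversed to 0.0100 with normexp and 0.0545 with the median over all probes. The fasted Mars2 difference reversed to -0.13 with normexp. For genotype, limma called 0 of 16744 genes at an adjusted p under 0.05 (4746 unadjusted), but 319 with median scaling, 498 with normexp, 474 with an intensity trend, 1 without feeding state, and 1214, with 1 member, among genes well above background on all 4 arrays. For feeding it called 0 (4414 unadjusted) and 15 with that last filter. The cause of these shifts was not tested. No paired analysis was possible because the labels carry no replicate numbers and each group holds 1 array. Signals near background limit Yars, Mars2 and Nars2.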

Other observations

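Beside the synthetases, 2 genes of other aminoacylation steps had unlike values in the feeding states. Sepsecs, which makes selenocysteinyl-tRNA, had a log2 difference (Drp1LiKO minus Cont) of -0.16 after fasting and 0.81 after refeeding. Qrsl1, a subunit of the mitochondrial amidotransferase, had -0.08 and 0.58. They were chosen after their values were seen, and the difference between the feeding states was not tested.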
